A study of Mus musculus with 81 samples.

Results

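The class I antigen processing genes Tap1, Tap2, Tapbp, Psmb8, Psmb9, Psmb10, Psme1, Psme2, Erap1 and Nlrc5 were followed by symbol through every RNA-seq library of a mouse macrophage study. They were 10 of 55536 genes counted, picked out by name, with earlier results of these data known when they were proposed. All 10 passed the filter on low counts in each of the 5 experiments, and the lowest count of any of them in a library was 80 (Psmb9). The study asked what macrophages express after loss of the histone variant H3.3, which the genes H3f3a and H3f3b both encode. WT cells came from C57BL/6 mice with floxed H3f3a and H3f3b and no cre, and cKO cells from mice with the same floxed alleles and LysM-cre in both copies of the locus, so that deletion is limited to myeloid cells and loss of Lyz2 expression goes with the cKO genotype. Mice of both sexes, 8 to 10 weeks old, were used. Bone marrow-derived macrophages (BMDM) were grown in L929-conditioned medium and collected on days 3, 5 and 7, on day 8 with or without 12 h of IFNγ, or after culture with no antibody, a control antibody or an antibody against the type I interferon receptor chain IFNAR1. Peritoneal macrophages were isolated from WT and cKO mice. A further experiment held 3 sets of WT and cKO BMDM and 3 double KOs, in which cells of the cKO genotype also lacked Sting, Mavs or Irf7 through a whole-body deletion. Each group had 3 libraries, except the cKO groups of day 8, which had 2.

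Class I molecules show cytosolic peptides to CD8 T cells. The immunoproteasome subunits Psmb8, Psmb9 and Psmb10 take the place of the constitutive catalytic subunits Psmb5, Psmb6 and Psmb7, and Psme1 and Psme2 form the PA28 activator that caps the proteasome core. Tap1 and Tap2 form the transporter that moves peptides into the endoplasmic reticulum, Tapbp encodes tapasin, which holds the empty class I molecule at the transporter, and Erap1 trims peptides there. Nlrc5 is the transactivator of class I genes, and interferons are known inducers of the pathway.

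In GRCm38 coordinates, 5 of the genes lay in the MHC region of chromosome 17: Tapbp (33915899 to 33929292), Psmb9 (34181987 to 34187764, minus strand), Tap1 (34187553 to 34197225), Psmb8 (34197721 to 34201454) and Tap2 (34203527 to 34216321). Psmb10 (105935735 to 105938444, minus strand) and Nlrc5 (94434356 to 94527272) lay on chromosome 8, Psme1 (55578123 to 55581529) and Psme2 (55587441 to 55591113, minus strand) on chromosome 14, and Erap1 (74639568 to 74693201) on chromosome 13. The exons of Tap1 and Psmb9 overlapped by 212 bases on opposite strands, and counts were made without strand, so reads in the overlap cannot be assigned to either gene. Exon sequence shared with another gene made up 29.0% of Tapbp, 18.5% of Tap2, 14.7% of Psmb8 and 11.5% of Erap1.

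RefSeq promoter sequence (GRCm38.p6) was matched for 8 of the 10 genes, not for Tap2 or Nlrc5, and the 250 bases before each start were searched on both strands for 3 motifs tied to class I and interferon-responsive genes. The start here is that of the RefSeq promoter sequence, not the end of the gene span given above. The printed sites of Tapbp, Psmb8, Psmb9 and Erap1 lie inside those spans. The sites found are printed 5′ to 3′ with the motif in capitals. The Y box letters ATTGG were in 33.85% of 32851 promoters and in those of 3 of these genes, where Tap1 and Psmb9 share 1 site read on opposite strands.
Tap1, chr17:34187324-34187348, plus strand, 222 bases before the start: gctcggctttCCAATcagcggctgc
Psmb9, chr17:34187324-34187348, minus strand, 8 bases before the start: gcagccgctgATTGGaaagccgagc
Tapbp, chr17:33919228-33919244, plus strand, 248 bases before the start: aaATTGGgttgtcatga
Tapbp, chr17:33919303-33919327, plus strand, 165 bases before the start: taaaatatttATTGGtcacttcact
The letters of a gamma-activated site, TTCNNNGAA, were in 7.02% of promoters and only in that of Psmb8 among the 8 genes. The interferon-stimulated response element core, GAAANNGAA, was in 7.13% of promoters and only in that of Erap1 among them.
Psmb8, chr17:34198088-34198116, plus strand, 97 bases before the start: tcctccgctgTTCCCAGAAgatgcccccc
Erap1, chr13:74639834-74639862, plus strand, 9 bases before the start, the motif on the minus strand: ccggtccaccTTCACTTTCactttcggtc
These sites are shown because both genes rose with IFNγ, as did the 8 others, and a match of letters is not evidence that a factor binds.

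Levels are given as CPM, the counts per 1000000 counts of a library after TMM scaling, and changes as log2 fold changes ± SE from edgeR's quasi-likelihood test, with p-values adjusted by Benjamini-Hochberg over all genes tested and a gene called at an adjusted p under 0.05. Libraries held from 3614967 to 45581528 counts. H3f3a group means were 36.3 to 76.4 CPM in WT and 3.25 to 15 CPM in cKO or double KO cells. H3f3b means were 218 to 438 and 35.2 to 329 CPM. The lowest were in the antibody experiment, at 35.2 to 49.8 CPM in cKO and 306 to 376 CPM in WT groups. Elsewhere H3f3b mRNA stayed nearer WT, as on day 3 (202 against 234 CPM) and in set 1 (203 against 247 CPM). The Irf7 double KO, at 121 CPM, was the lowest of those groups. Between genotypes H3f3b was not called on days 3, 5, 7 and 8 or in peritoneal cells. Lyz2 means were 4945 to 64214 and 2.48 to 62.6 CPM. In the double KOs, mean Tmem173 (Sting) was 5.52 CPM and Irf7 106 CPM (310 to 388 in the cKO sets). Mavs was at 37.5 CPM in the Mavs double KO, 38.9 to 49.9 CPM in the cKO sets and 49.5 to 60.7 CPM in the WT sets. It was called lower there than in the cKO sets (-0.26 ± 0.06, adjusted p = 0.00414) and the WT sets (-0.53 ± 0.06, adjusted p = 9.65e-08), a reduction in whole-gene counts that was far from complete. The paper reports each of these deletions by genomic PCR, qRT-PCR and RNA-seq tracks over the deleted regions, which counts per gene do not resolve. The macrophage marker list was expressed in every group, with none of its 7 genes at 0. The labels call the libraries of a group biological replicates and give nothing on the animals behind them, so p-values measure the spread between these samples. In such bulk samples a different share of cells expressing a gene and a different amount of RNA per cell cannot be told apart.

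On day 3 of culture the pathway was higher in cKO cells: 7 of the 10 genes rose and none fell. Each of the 10 had all 3 cKO libraries above all 3 WT libraries, though the share of all genes ordered this way is not given here. Of all genes tested, 6.0% were called higher, and the median log2 difference was 1.22 over the 10 genes and 0.04 over all genes. The immunoproteasome subunits all rose. Psmb9, the β1i subunit, was at 15, 17 and 14.2 CPM in WT and 59.2, 46 and 58.5 CPM in cKO libraries, a log2 fold change of 1.83 ± 0.25 (adjusted p = 0.000291). Psmb8, the β5i subunit, was at 44.9, 39.5 and 35 CPM in WT and at 108, 81.9 and 77.7 CPM in cKO libraries (log2 fold change 1.16 ± 0.23, adjusted p = 0.00486). Neither gene's groups overlapped. Psmb10, the β2i subunit, was at 34.5 to 48.5 CPM in WT and 79.7 to 110 CPM in cKO libraries (1.11 ± 0.28, adjusted p = 0.0221). The 3 constitutive subunits that they replace had log2 differences of -0.32 to 0.10, with none called.

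Tap1 and Nlrc5 had the largest day 3 changes of the 10 genes. Tap1 was at 29.9, 30.2 and 33.9 CPM in WT and at 223, 200 and 219 CPM in cKO libraries, which was 6.82-fold (log2 2.77 ± 0.37, adjusted p = 0.000272). Nlrc5 was at 32.9, 34.8 and 30.5 CPM in WT and 151, 142 and 173 CPM in cKO libraries, 4.75-fold (log2 2.25 ± 0.30, adjusted p = 0.000257). In both genes the cKO libraries stood several times above the highest WT library. Tap2, the partner of Tap1 in the transporter, was at 26.2, 24.7 and 31.6 CPM and at 74.3, 68.3 and 57.2 CPM (1.28 ± 0.20, adjusted p = 0.000974). Tapbp was at 177, 132 and 151 CPM in WT and 456, 353 and 348 CPM in cKO libraries (1.33 ± 0.35, adjusted p = 0.0265).

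The other 3 genes were not called on day 3. Psme1 and Psme2, the PA28 pair, had log2 differences of 0.79 ± 0.24 and 0.78 ± 0.27 (adjusted p = 0.0534 and 0.0865). Erap1 was at 77.5 to 91.1 CPM in WT and 108 to 118 CPM in cKO libraries (0.43 ± 0.18, adjusted p = 0.162). With the replicate block, as the numbers paired the day 3 libraries, Psme1 and Psme2 were called (adjusted p = 0.0106 and 0.00659), and with the day 3 groups fitted alone all 3 were (0.00651, 0.0206 and 0.0166 for Psme1, Psme2 and Erap1). Without any 1 of the 6 libraries Tapbp lost its call (adjusted p 0.0504 to 0.11), and without any 1 of the 6 except cKO replicate 3 Psmb10 did (0.0521 to 0.0998). The other 5 calls held in each of these fits.

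Beyond the 10 genes, the class I chains rose on day 3 (3 of 3 called), with log2 fold changes of 2.34 in H2-K1, 1.83 in B2m and 1.82 in H2-D1. In the endoplasmic reticulum folding and loading list, 1 of 6 rose, the tapasin relative Tapbpl (1.12, adjusted p = 0.00234). None of the 17 subunits of the 19S cap was called (median -0.05), nor any of 11 other 20S core subunits, 8 peptidases or 8 regulators and assembly factors. Those 44 genes with the 3 constitutive catalytic subunits held no call by edgeR's test. Among transcription factors of class I genes, Irf1 (1.61) rose, and Nfya (-0.84) and Rfxap (-0.53) fell. Markers of other cell types were also compared on day 3. The summed B cell markers were at 13.4 to 14.3 CPM in WT and 27.4 to 57.4 CPM in cKO libraries. The summed neutrophil markers, at 1583 to 3038 and 2732 to 4205 CPM, overlapped. The macrophage markers summed to 2947 to 4666 and 3031 to 3854 CPM. The part of these cells in the differences was not tested.

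**Figure D1:**
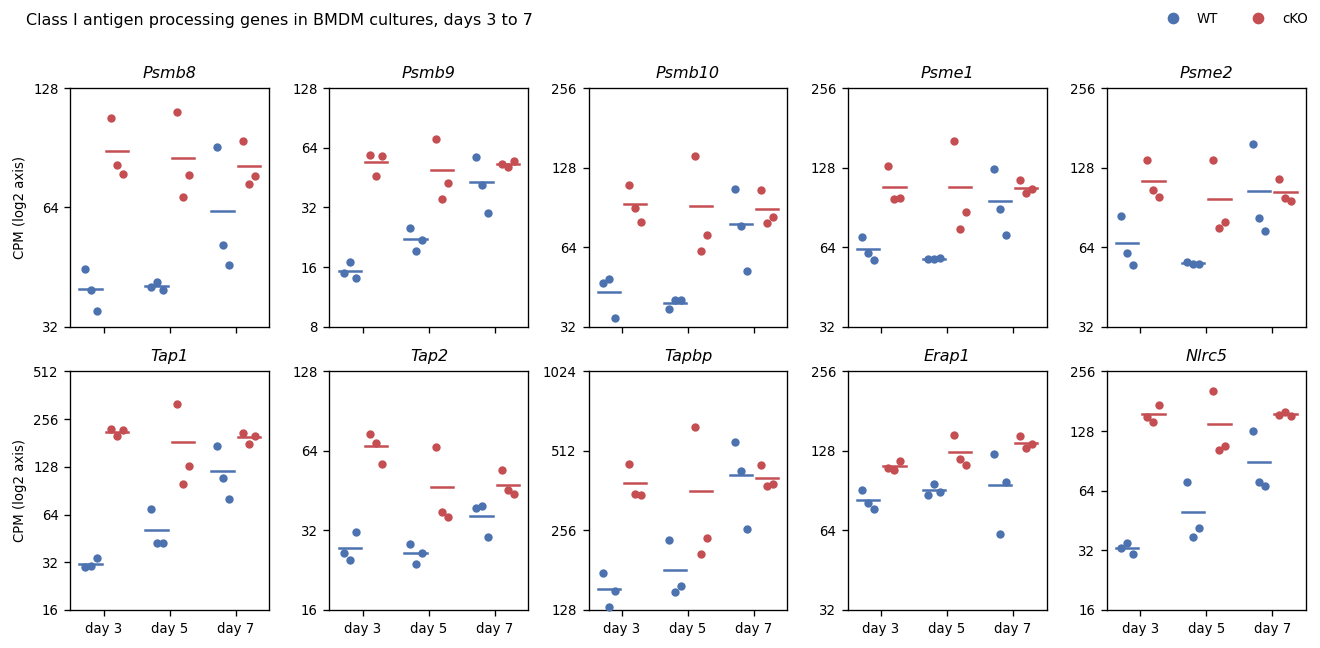
Levels of the 10 genes on days 3, 5 and 7 in CPM on a log2 axis, 1 point a library and a bar at the group mean, WT in blue and cKO in red. On day 3 every cKO library lies above every WT library in each gene, and by day 7 the WT libraries have come up so that 6 of the 10 genes overlap. The share of all genes ordered as on day 3 is not given.

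On day 5, 6 of the 10 genes rose in cKO cells against 2.46% of all genes called higher, with a median log2 difference of 1.04 (all genes 0.01). Tap1 was at 69.5, 42.4 and 42.5 CPM in WT and 320, 100 and 130 CPM in cKO libraries (1.83 ± 0.35, adjusted p = 0.0104). Nlrc5 was at 70.9, 37.3 and 41.3 CPM and at 204, 103 and 108 CPM (1.47 ± 0.29, adjusted p = 0.011). In both genes the first cKO library was far above the other two. Psmb10 (1.22), Psmb9 (1.17), Psmb8 (1.08) and Tap2 (0.83) were the other called genes. Tapbp was at 237, 150 and 158 CPM in WT and 633, 208 and 239 CPM in cKO libraries and was not called (0.99 ± 0.35, adjusted p = 0.178). That first cKO library also had the highest neutrophil marker sum of the day, 1741 CPM against 504 and 587 CPM in the others and 486 to 585 CPM in WT. Summed stromal markers separated the genotypes on day 5, at 15 to 48.6 CPM in WT and 76.3 to 110 CPM in cKO libraries, as did the low peritoneal markers (6.52 to 6.91 and 13.3 to 24.2 CPM), and their part was not tested. Without cKO replicate 1, that first library, 1 gene was called and the median was 0.63. Without WT replicate 1 the count was 3, and without WT replicate 2 or 3 it was 0, as it was with the day 5 groups fitted alone.

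By day 7 none of the 10 genes was called between genotypes by edgeR's test, with 1.13% of all genes called higher and a median of 0.34 (all genes 0.01). An unadjusted p under 0.05 was found in 2 of the 10 and in 2653 of the 15955 genes tested, and DESeq2 called 0 of the 10. Tap1 was at 172, 109 and 80 CPM in WT and 210, 178 and 201 CPM in cKO libraries (0.71 ± 0.34, adjusted p = 0.312, 95% interval -0.02 to 1.44). Nlrc5 was at 129, 71.2 and 67.8 CPM and at 155, 160 and 152 CPM (0.80 ± 0.28, adjusted p = 0.158). Tapbp was at 554, 431 and 258 CPM and at 453, 376 and 385 CPM (-0.03 ± 0.35), and Psme2 at 157, 82.4 and 73.8 CPM and at 116, 98.5 and 96 CPM (-0.02 ± 0.27). WT replicate 1 was the highest WT library in each of these genes, and in Tapbp and Psme2 it lay above every cKO library. Without it, 3 genes were called, Nlrc5 among them (adjusted p = 0.0311).

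Over time most of the genes rose in WT cells and none was called in cKO cells. From day 3 to day 7, 6 rose in WT against 12.6% of all genes (median 0.76, all genes 0.05). They were Tap1 (1.94 ± 0.36, 3.84-fold, adjusted p = 0.00165), Psmb9 (1.48), Nlrc5 (1.45), Tapbp (1.44), Psmb10 (0.86) and Psmb8 (0.66). The calls on Psmb8 and Psmb10 were lost without any WT day 3 library or WT day 7 replicate 1, and that on Psmb10 also without WT day 7 replicate 2 (adjusted p 0.0605 to 0.267). In cKO cells none was called by edgeR's test (1 at an unadjusted p under 0.05, 0 by DESeq2), against 8.25% of all genes called lower, and the log2 differences ran from -0.48 in Tap2 to 0.29 in Erap1 (median -0.05). Nlrc5 means on day 3 and day 7 in cKO cells differed by 0.00 ± 0.28. In WT cells the class I chains rose as well (3 of 3, median 1.66), while 4 of 17 19S subunits fell, against 11.9% of all genes called lower. Marker sums of other cell types moved with culture time in WT cells: neutrophil markers summed to 1583 to 3038 CPM on day 3 and 74.1 to 131 CPM on day 7, and B cell markers to 13.4 to 14.3 and 3.72 to 5.95 CPM. In cKO cells the neutrophil markers went from 2732 to 4205 CPM to 89.9 to 276 CPM. Their part in the changes was not tested.

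The test of that difference in the genotype effect, day 7 against day 3, called none of the 10 genes, with 0.0313% of all genes called lower. At an unadjusted p under 0.05 there were 7, with 2491 of the 15955 genes tested, and DESeq2 called 3. The estimates were negative in 9 of 10 genes (median -0.90), from -2.06 ± 0.49 in Tap1 (adjusted p = 0.0847) and -1.52 ± 0.34 in Psmb9 (adjusted p = 0.0767) to 0.11 ± 0.25 in Erap1. Without WT day 7 replicate 3, Tap1 and Psmb9 were called (adjusted p = 0.0438 and 0.031).

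Per kilobase of exon, Tapbp had the highest mean level in WT cells on day 3 (42.2 CPM per kb), followed by Psme2 (37.6), Psme1 (28.4) and Psmb10 (25.4). Psmb8 (11.8), Erap1 (11.4), Tap2 (7.27), Tap1 (5.72), Psmb9 (4.20) and Nlrc5 (3.85) were lower. In cKO cells on day 3 Tap1 had moved up to 39.0 CPM per kb, above Psmb8 (26.4), and Erap1 (15.4) and Psmb9 (14.9) were at the foot of the order. These are gene levels per length, and neighbours such as Psmb8 and Erap1 in WT differed by less than the spread between libraries. The length merges all annotated exons of a gene (3381 bases in Psmb8, 3660 in Psmb9). It is not that of the transcript expressed, so the order of genes depends on this choice.

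On day 8 in untreated cells, 1 of the 10 genes rose in cKO cells, Tap1, against 0.558% of all genes called higher (median of the 10 genes 0.52, all genes 0.01). Tap1 was at 77.5, 69.4 and 71.3 CPM in WT and 156 and 178 CPM in cKO libraries (1.20 ± 0.20, adjusted p = 0.0279). Nlrc5 was at 55.3, 51.7 and 41.7 CPM and at 94.2 and 91.7 CPM (0.91 ± 0.23, adjusted p = 0.186), and Psmb9 at 30.8, 33.1 and 33.1 CPM and at 45.3 and 58.5 CPM (0.68 ± 0.15, adjusted p = 0.104). In 9 of the 10 genes both cKO libraries lay above all 3 WT libraries, and the share of all genes ordered this way is not given here. The Tap1 call was lost without any 1 of the 5 libraries (adjusted p 0.1 to 0.341), while DESeq2 called 3 genes and the day 8 untreated groups fitted alone 5.

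IFNγ raised the whole pathway. In WT cells 10 of 10 genes rose over 12 h against 19.5% of all genes (median log2 2.54, all genes -0.01), and in cKO cells 10 of 10 against 17.5% (median 2.56, all genes -0.02). The 2 comparisons share no library. Tap1 went from the levels above to 622, 741 and 673 CPM in WT, 9.33-fold (log2 3.22 ± 0.20, adjusted p = 2.2e-06), and to 1706 and 1046 CPM in cKO libraries (3.04 ± 0.24, adjusted p = 1.99e-05). Nlrc5 reached 440, 541 and 412 CPM in WT (3.23 ± 0.22, adjusted p = 4.63e-06) and 391 and 674 CPM in cKO libraries (2.52 ± 0.27, adjusted p = 0.000106). All treated libraries lay far above all untreated ones. Erap1 rose least, to 270, 238 and 228 CPM in WT from 94.3, 107 and 98.9 CPM (1.29 ± 0.13), and to 194 and 242 CPM in cKO from 109 and 112 CPM (0.98 ± 0.16). The call on Erap1 in cKO cells was lost when only the groups compared were fitted.

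Each of the proteasome genes rose strongly with IFNγ in WT cells. Psmb10 went from 46.9, 52 and 47.2 to 363, 364 and 330 CPM (2.85 ± 0.28), Psmb9 from 30.8, 33.1 and 33.1 to 165, 183 and 182 CPM (2.45 ± 0.14) and Psmb8 from 50.1, 51.5 and 50.2 to 243, 261 and 270 CPM (2.35 ± 0.21). Psme2 rose by 2.49 ± 0.14 and Psme1 by 1.80 ± 0.13 on the log2 scale. Tap2 went from 22.7, 23.3 and 22.9 to 158, 194 and 179 CPM (2.94 ± 0.28), and Tapbp from 219, 244 and 208 to 1238, 1481 and 1319 CPM (2.59 ± 0.33). The wider proteasome moved less: 8 of 11 other 20S subunits rose in WT (median 0.94, led by Psma5 at 1.81), 2 of 3 constitutive catalytic subunits and 4 of 17 19S subunits (median 0.31). Of all genes tested, 19.5% were called higher in WT, and the 19S count lay near that share. The assembly factor Pomp rose by 1.59, Tapbpl by 3.54, the peptidase Lap3 by 2.0, and the transcription factor Irf1 by 4.98. The class I chains rose with a median of 1.70 in WT (3 of 3 called) and 1.27 in cKO (2 of 3).

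**Figure D2:**
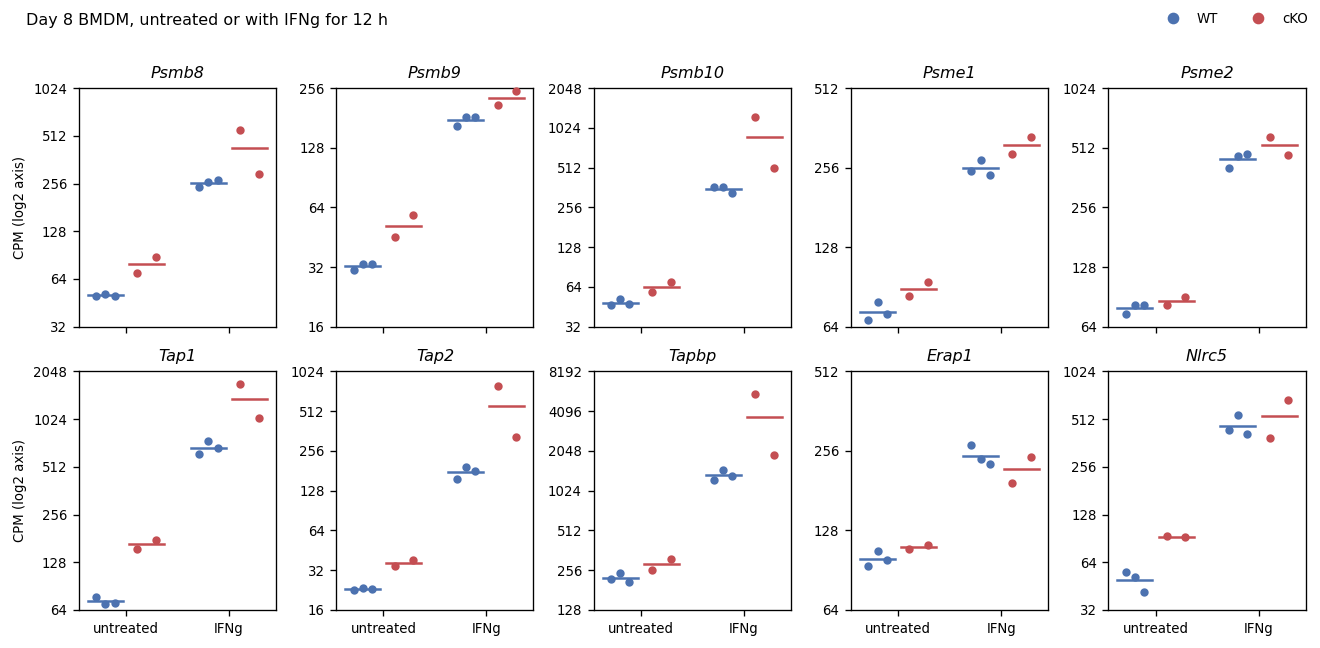
Levels of the 10 genes in day 8 BMDM, untreated or with IFNγ for 12 h, in CPM on a log2 axis, 1 point a library and a bar at the group mean, WT in blue and cKO in red. Every treated library lies above every untreated library in all 10 genes (the share of all genes so ordered is not given). The 2 treated cKO libraries are far apart in Tap2, Tapbp and Psmb10.

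Between genotypes under IFNγ, 4 of the 10 genes were called higher in cKO cells against 3.59% of all genes (median 0.55, all genes -0.01). They were Tap2 (1.67 ± 0.29, adjusted p = 0.0141), Tapbp (1.47 ± 0.34, adjusted p = 0.0381), Psmb10 (1.32 ± 0.29, adjusted p = 0.0323) and Tap1 (1.02 ± 0.20, adjusted p = 0.0214). The 2 treated cKO libraries were unlike each other: Tapbp was at 5555 and 1913 CPM, Tap2 at 801 and 327 CPM, and Psmb10 at 1245 and 509 CPM, while Nlrc5 was at 391 and 674 CPM in the opposite order. The first of them is the shallowest library of the series, with 3614967 counts, and its part in these differences was not tested. Without WT replicate 1 or 3 no gene was called (adjusted p over the 4 genes 0.0526 to 0.14), and without WT replicate 2 there were 2 calls, Tapbp and Psmb10 being lost. Without either cKO library 5 were called, in fits where the lone cKO library is assumed to vary like the other groups. Summed stromal markers were at 10.3 to 58.6 CPM in WT and 62.5 to 388 CPM in cKO treated libraries, and their part was not tested. No gene was called with the IFNγ groups fitted alone.

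The test of the IFNγ response between genotypes called none of the 10 genes and 0% of all genes (in both directions). At an unadjusted p under 0.05 there were 2, with 1206 of the 13075 genes tested, and DESeq2 called 0 of the 10. Estimates ran from -0.71 ± 0.33 in Nlrc5 to 1.13 ± 0.49 in Tapbp (95% interval 0.04 to 2.23), with a median of 0.05. Without cKO IFNγ replicate 2, which leaves the shallow library alone in its group and assumes that it varies like the other groups, 5 genes were called, Tap2 and Tapbp among them (adjusted p = 0.000193 and 0.000304). Dendritic cell markers summed to 50.5 to 74.6 CPM in WT and 24.1 to 36.4 CPM in cKO treated libraries, against at most 2.11 CPM in untreated ones, and their part was not tested.

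In peritoneal macrophages none of the 10 genes was called between genotypes by edgeR's test, none had an unadjusted p under 0.05 and DESeq2 called none, with 0.639% of all genes called higher. The median was 0.12 (all genes 0.00). Tap1 was at 75.4, 67 and 52.7 CPM in WT and 75.6, 77.9 and 110 CPM in cKO libraries (0.43 ± 0.21, 95% interval -0.04 to 0.91). Nlrc5 was at 27.8, 47 and 45.3 CPM and at 51.3, 46.3 and 69.6 CPM (0.47 ± 0.24, interval -0.09 to 1.02). Tap1 separated by a narrow margin and Nlrc5 overlapped. The intervals of the other 8 genes lay between -0.61 and 0.73. Tapbp was at 686 to 837 CPM in WT and 787 to 893 CPM in cKO peritoneal cells. The peritoneal marker list, which summed to at most 31.3 CPM in day 8 BMDM, was at 2488 to 2749 CPM in WT and 2077 to 2702 CPM in cKO libraries.

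**Figure D3:**
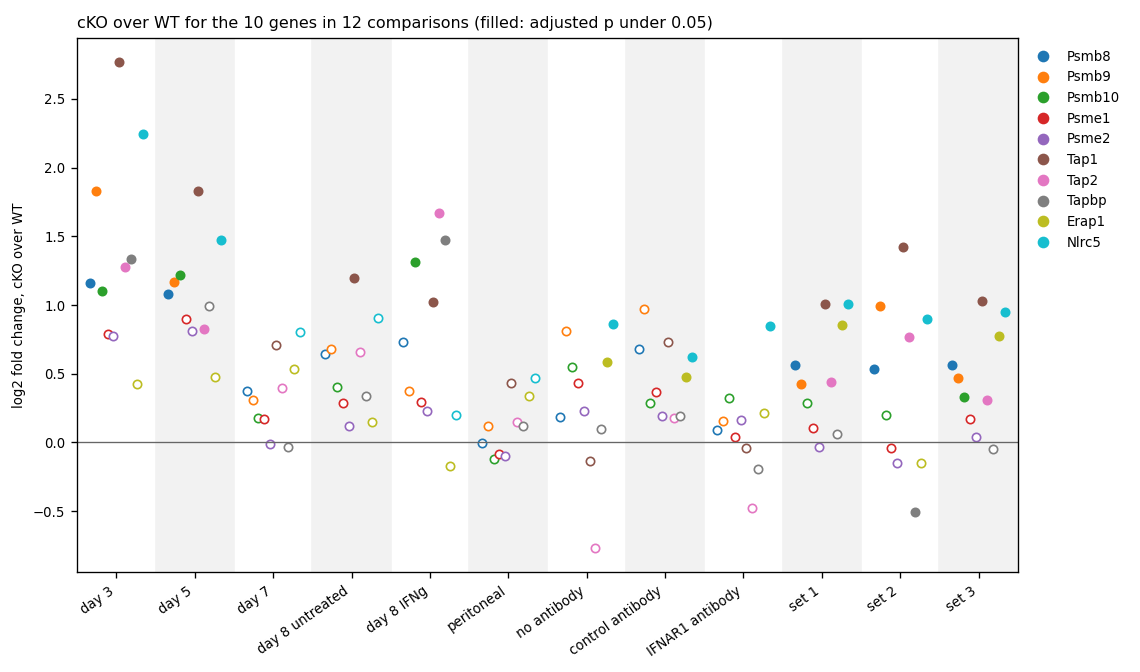
Log2 fold changes of cKO over WT for the 10 genes in the 12 comparisons of the genotypes, each in its own experiment or arm, with filled points for an adjusted p under 0.05 and open points for the rest. The highest point is Tap1 on day 3, at 2.77, and points run from -0.12 to 0.47 in peritoneal macrophages.

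In the antibody experiment cKO cells with no antibody had 2 of the 10 genes higher against 4.01% of all genes (median 0.33, all genes 0.00). Erap1 was at 72.9, 57.3 and 57.8 CPM in WT and 93.9, 96.9 and 91.6 CPM in cKO libraries (0.59 ± 0.11, adjusted p = 0.00513). Nlrc5 was at 65.8, 59.2 and 64.8 CPM and at 135, 105 and 106 CPM (0.87 ± 0.17, adjusted p = 0.00731). Both separated the genotypes. Tap1 did not: its WT libraries were at 52.1, 101 and 75.7 CPM and its cKO libraries at 107, 63 and 38.6 CPM (-0.14 ± 0.53, interval -1.26 to 0.99). Tap2 was at 49.9, 105 and 71.1 CPM and at 50.9, 47.9 and 33.7 CPM (-0.77 ± 0.31, adjusted p = 0.125). Without WT no antibody replicate 1, 4 genes were called, 3 higher and 1 lower.

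With the control antibody, 2 genes were called higher in cKO cells against 3.43% of all genes (median 0.42, all genes 0.00), again Erap1 (0.48 ± 0.11, adjusted p = 0.0207) and Nlrc5 (0.62 ± 0.17, adjusted p = 0.0497). Nlrc5 was at 46.1, 46 and 49.2 CPM in WT and 78.3, 71.2 and 68.3 CPM in cKO libraries. Tap1 was at 21.9, 22.5 and 21 CPM and at 41.2, 38.5 and 28.6 CPM, without overlap but not called (0.73 ± 0.55, adjusted p = 0.63). Without any 1 of the 6 libraries neither Erap1 (adjusted p 0.0555 to 0.1) nor Nlrc5 (0.105 to 0.19) was called, and with these 2 groups fitted alone 7 genes were. Summed stromal markers were at 16.3 to 256 CPM in WT and 206 to 378 CPM in cKO libraries of this arm, and their part was not tested.

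With the IFNAR1 antibody, 1 gene was called higher in cKO cells against 0.483% of all genes (median 0.12, all genes 0.00). This was Nlrc5, at 44.3, 30.2 and 55.8 CPM in WT and 79.5, 69 and 85.9 CPM in cKO libraries (0.84 ± 0.17, adjusted p = 0.0342). The call was lost without WT replicate 1 or 2 or cKO replicate 2 or 3 (adjusted p 0.0521 to 0.174). Tap1 was at 77.6, 84.1 and 23.3 CPM in WT and 122, 29.5 and 26.9 CPM in cKO libraries, so that both groups held high and low libraries (-0.04 ± 0.53). Erap1 was at 72.8, 71.4 and 72.6 CPM in cKO libraries and its difference from WT was 0.22 ± 0.11 (adjusted p = 0.457).

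Between antibodies, which share the control arm with the genotype comparison above, none of the 10 genes was called in cKO cells (0 by DESeq2, median 0.01). By edgeR's test 2.25% of all genes were called lower, and 1 of the 10 and 3383 of the 17191 genes tested had an unadjusted p under 0.05. In WT cells none was called either, with 7.38% of all genes higher and 3.84% lower. There 5 had an unadjusted p under 0.05, as did 5817 of the 17191 genes tested, and DESeq2 called 2 of the 10. The estimates were positive for Tap1 (1.5 ± 0.55, adjusted p = 0.0799) and Tap2 (0.95 ± 0.31, adjusted p = 0.0584), with a median of 0.40. Without WT IFNAR1 replicate 3, whose Tap1 of 23.3 CPM was near the control arm, 5 genes were called, Tap1 among them (adjusted p = 0.0122). The test of the genotype effect between the IFNAR1 and control arms called none of the 10 and 0% of all genes, none of the 10 at an unadjusted p under 0.05 and none by DESeq2. Its estimates ran from -0.81 ± 0.41 in Psmb9 to 0.22 ± 0.24 in Nlrc5 (median -0.36).

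Estimates with the control antibody were lower in most of the genes, with few calls. Against no antibody, 1 gene fell in WT cells with 5.96% of all genes called lower, Tap2, from 49.9, 105 and 71.1 CPM to 34.1, 31.5 and 29.2 CPM (-1.25 ± 0.32, adjusted p = 0.0246). Tap1 was at 52.1 to 101 CPM without antibody and 21 to 22.5 CPM with it (-1.80 ± 0.56, adjusted p = 0.0512). In 8 of the 10 genes all control libraries lay below all libraries without antibody (median -0.46, all genes -0.01). The share of all genes ordered this way is not given here. With the replicate block, where the numbers paired these libraries, 5 genes were called. Without WT no antibody replicate 1 there were 2, Tap1 included (adjusted p = 0.0369), and without any 1 of the 5 other libraries Tap2 was not called (0.0625 to 0.122) and no other gene was. In cKO cells none was called, against 0.919% of all genes lower by edgeR's test, and all 10 estimates were negative (median -0.33). An unadjusted p under 0.05 was found there in 3 of the 10 and in 2062 of the 17191 genes tested, and DESeq2 called 1 of the 10. Nlrc5 was at 135, 105 and 106 CPM and at 78.3, 71.2 and 68.3 CPM there (-0.67 ± 0.17, adjusted p = 0.059).

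**Figure D4:**
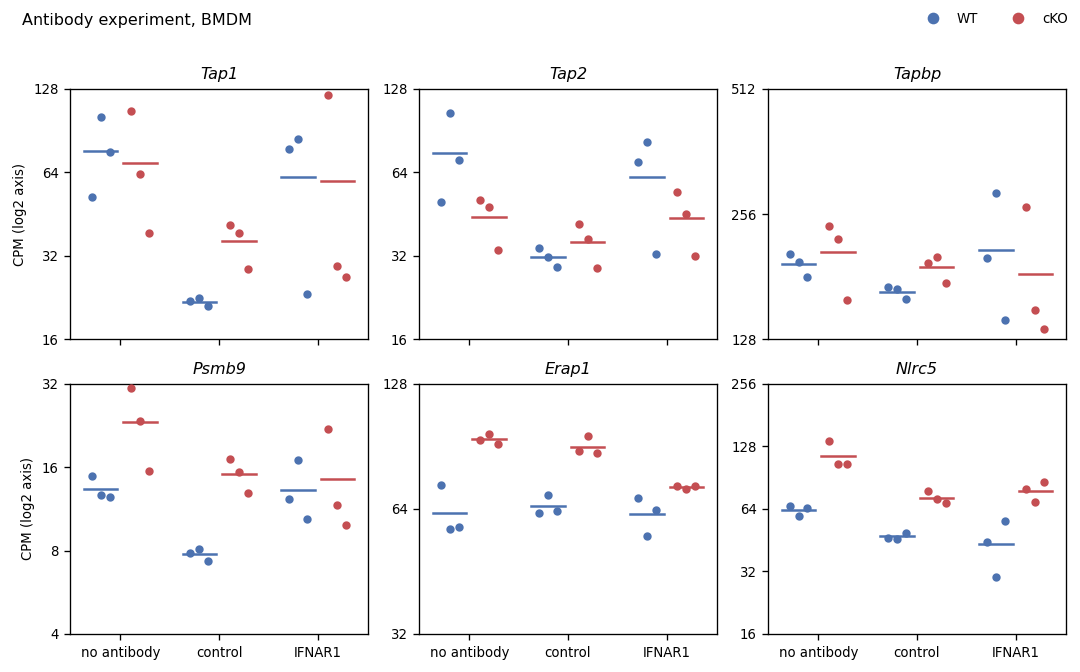
Tap1, Tap2, Tapbp, Psmb9, Erap1 and Nlrc5 in BMDM with no antibody, a control antibody or an IFNAR1 antibody, in CPM on a log2 axis, 1 point a library and a bar at the group mean, WT in blue and cKO in red. Nlrc5 separates the genotypes in all 3 arms, while Tap1 spreads from 23.3 to 84.1 CPM within the WT IFNAR1 arm.

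A further 3 sets of WT and cKO BMDM were sequenced beside the double KOs. In set 1, 6 of the 10 genes were higher in cKO cells against 17.9% of all genes (median 0.43, all genes -0.03), and in set 3, 7 against 17.1% (median 0.40, all genes -0.06). In set 2, 5 were higher against 10.1% and 1 lower against 11.8% (median 0.37, all genes -0.01). Sets 1 and 3 were not plainly separate: each of the 6 set 1 libraries was nearest, by a chi-square over genes, to the set 3 library of the same genotype and number, though they differed beyond sampling noise (14.97 to 49.25 per degree of freedom). The labels do not say whether these libraries share animals, so agreement of the 2 sets is not read as independent replication. The fit nevertheless treats all their libraries as separate samples. If animals are shared, p-values that average over both sets, as in the double KO comparisons, may be too small. Summed neutrophil markers separated the genotypes in set 1 (59.3 to 110 CPM in WT, 196 to 281 in cKO) and set 3 (66.5 to 120 and 194 to 319), and overlapped in set 2 (101 to 176 and 151 to 169). Dendritic cell markers separated them in all 3 sets, at 1.49 to 5.68 CPM over the WT and 4.73 to 13.8 CPM over the cKO libraries, as did B cell markers (2.69 to 6.90 and 5.90 to 14.7 CPM), and their part was not tested.

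Tap1 was called in all 3 sets. It was at 103, 87.3 and 138 CPM in WT and 214, 211 and 234 CPM in cKO libraries of set 1 (1.01 ± 0.11, adjusted p = 1.87e-07). In set 2 it was at 78.5, 79 and 77.3 CPM and at 204, 223 and 204 CPM (1.43 ± 0.11, adjusted p = 1.3e-09), and in set 3 its change was 1.03 ± 0.11 (adjusted p = 1.25e-07). No set overlapped. Nlrc5 was at 54.4 to 56.7, 68.2 to 71.6 and 43.7 to 57.2 CPM in WT libraries of sets 1, 2 and 3, and at 107 to 119, 121 to 144 and 90.1 to 111 CPM in cKO libraries. Its changes were 1.01, 0.90 and 0.95, each with an SE of 0.09 and called. Tap2 (0.44, 0.77 and 0.31), Psmb8 (0.56, 0.54 and 0.57) and Psmb9 (0.43, 1.0 and 0.47) were also called in each set. In set 3 the calls on Tap2 and Psmb10 (0.33) were lost without some libraries, Tap2 without WT replicate 2 or 3 or cKO replicate 2 (adjusted p 0.0552 to 0.0604) and Psmb10 without any but cKO replicate 1 (0.0602 to 0.224), and in set 1 that on Psmb9 was lost without WT replicate 2 (0.0771). Psme1 and Psme2 were not called in any set, with estimates from -0.15 to 0.17.

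Erap1 and Tapbp differed between sets. Erap1 was at 69.6, 70 and 59.6 CPM in WT and 115, 122 and 124 CPM in cKO libraries of set 1 (0.86 ± 0.09, adjusted p = 1.29e-07), and set 3 had the same direction (0.78 ± 0.09, adjusted p = 4.32e-07). In set 2 the WT libraries were at 138, 154 and 146 CPM and the cKO libraries at 137, 132 and 127 CPM (-0.15 ± 0.09, adjusted p = 0.273). The cKO libraries were at 112 to 137 CPM over the 3 sets, while the WT libraries of set 2 stood above all other WT libraries. Tapbp was at 396, 404 and 408 CPM in WT and 256, 352 and 242 CPM in cKO libraries of set 2 (-0.51 ± 0.15, adjusted p = 0.0145), a call lost without cKO replicate 1 or 3 (0.0762 and 0.0977). In sets 1 and 3 Tapbp differed by 0.06 ± 0.15 and -0.05 ± 0.15. Other loading and folding genes were lower in set 2 cKO cells too: Calr (-1.19), Hsp90b1 (-0.94), Hspa5 (-0.90), Pdia3 (-0.81) and Canx (-0.68) made 5 of 6 on that list, while the class I chains rose in 3 of 3 (median 0.82).

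Tests of the genotype effect between sets were added after the values were seen. Set 2 against set 1 called 1 gene lower, with 11.7% of all genes lower, Erap1 (-1.0 ± 0.13, adjusted p = 8.26e-06), and 1 higher, Psmb9 (0.57 ± 0.17, adjusted p = 0.0224). The Psmb9 call was lost without WT set 1 replicate 3, cKO set 1 replicate 2, WT set 2 replicate 3 or cKO set 2 replicate 2 (0.0516 to 0.0807), and without WT set 1 replicate 2 there were 4 calls. Set 2 against set 3, with 10.8% of all genes lower, called Erap1 lower (-0.92 ± 0.13, adjusted p = 1.77e-05) and Psmb9 (0.53 ± 0.17, adjusted p = 0.0328) and Tap2 (0.46 ± 0.14, adjusted p = 0.02) higher. There the Psmb9 call was lost without WT set 2 replicate 2 or 3, cKO set 2 replicate 2, WT set 3 replicate 3 or cKO set 3 replicate 1 or 3 (0.0576 to 0.0906), and the Tap2 call without replicate 1 of WT or cKO set 3 (0.0686 and 0.052). Both comparisons use set 2. Set 3 against set 1 called none of the 10 and 0% of all genes, none of the 10 at an unadjusted p under 0.05 and none by DESeq2.

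The Sting double KO had the highest levels. Against the mean of the 3 cKO sets, 9 of the 10 genes rose with 19.1% of all genes called higher, and 1 fell with 17.2% lower (median 0.45, all genes 0.02). Tapbp was at 522, 573 and 633 CPM against 242 to 414 CPM over the 9 cKO libraries (0.84 ± 0.12, 1.79-fold, adjusted p = 8.35e-06). Psmb10 was at 134, 118 and 137 CPM against 61.7 to 91.8 CPM (0.69 ± 0.10, adjusted p = 1.36e-05), and Tap1 at 329, 298 and 314 CPM against 182 to 234 CPM (0.58 ± 0.09, adjusted p = 1.81e-05). None of these 3 overlapped. Tap2 (0.58), Psmb8 (0.49), Psmb9 (0.42), Psme2 (0.38), Nlrc5 (0.35) and Psme1 (0.25) also rose, and Erap1, at 89.6, 115 and 101 CPM against 112 to 137 CPM, fell by 0.27 on the log2 scale (adjusted p = 0.00655). The Psme1 call was lost without 8 of the 12 libraries in turn (adjusted p 0.0517 to 0.165), namely replicates 1 and 3 of the double KO, of cKO set 2 and of cKO set 3, and replicates 1 and 2 of cKO set 1, that on Erap1 without double KO replicate 1 (0.0984) and that on Psme2 without double KO replicate 3 (0.0558). The choice of reference mattered too, and the mean of the 3 sets counts sets 1 and 3 as separate samples. With cKO set 1 alone 5 of the 10 were called, as Psmb8 (adjusted p = 0.057), Psmb9 (0.147), Psme1 (0.16), Psme2 (0.186) and Erap1 (0.0545) were not. With set 3 alone 6 were called, without Psmb8, Psme1, Psme2 and Erap1 (0.0646 to 0.145), and with set 2 alone 8, without Psme1 and Nlrc5 (0.0525 and 0.274). Stromal markers summed to 182 to 228 CPM in this double KO and 27.3 to 80.7 CPM in the cKO sets, and their part was not tested.

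No gene was called in the other double KOs against the cKO sets, the shared reference. In the Mavs double KO none of the 10 genes was called by edgeR's test, with 5.90% of all genes higher. Of the 10, 2 had an unadjusted p under 0.05, as did 4044 of the 18083 genes tested, and DESeq2 called 0. Estimates in the Mavs double KO ran from -0.26 ± 0.11 in Psmb8 to 0.15 ± 0.08 in Tap2 (median -0.08). Tap1 was at 208, 206 and 203 CPM (-0.03 ± 0.09, interval -0.21 to 0.15), and Nlrc5 at 119, 120 and 109 CPM (0.04 ± 0.07, interval -0.11 to 0.19). In the Irf7 double KO none was called either, with 4.81% of all genes higher, and without cKO set 2 replicate 2 there was 1. At an unadjusted p under 0.05 were 3 of the 10 and 4403 of the 18083 genes tested, and DESeq2 called 0 of the 10. There Tap1 was at 173, 184 and 195 CPM (-0.19 ± 0.09, interval -0.37 to 0.00) and Tapbp at 423, 398 and 374 CPM (0.31 ± 0.12, adjusted p = 0.103), with a median of 0.00.

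Against the mean of the 3 WT sets, which all double KOs share as reference, the Sting double KO had 10 of 10 genes higher with 20.5% of all genes (median 1.0, all genes -0.03), from 0.23 in Erap1 to 1.74 in Tap1. Leaving out a double KO library ended the calls on Psme2 (0.33; replicate 1 or 3, adjusted p 0.0636 and 0.0947) and Erap1 (replicate 2, 0.21). The Mavs double KO had 6 higher with 22.1% of all genes and 2 lower with 21.2%, with a median of 0.38 (all genes -0.04). Its Tap1 (1.13 ± 0.08), Nlrc5 (0.99), Tap2 (0.66), Erap1 (0.55), Psmb9 (0.46) and Psmb8 (0.30) were higher, and Tapbp (-0.35 ± 0.12, adjusted p = 0.0233) and Psme2 (-0.30 ± 0.11, adjusted p = 0.0299) lower. Without Mavs double KO replicate 1 or 3 its count was 5, with Psmb8, Tapbp and Psme2 not called, and the call on Psmb8 was also lost without double KO replicate 2, WT set 1 replicate 2, WT set 2 replicate 3 or WT set 3 replicate 1, and that on Psme2 without WT set 1 replicate 3 or WT set 3 replicate 2 (adjusted p over these 3 genes 0.0529 to 0.157). The Irf7 double KO had 7 higher with 15.1% of all genes (median 0.43, all genes -0.01), from Tap1 (0.97 ± 0.08) and Nlrc5 (0.79) to Psmb10 (0.32), the last not called without replicate 1 or 2 of this double KO (0.0723 and 0.0886). With WT set 2 alone as reference Erap1 was called lower in the Sting (-0.52) and Irf7 (-0.30) double KOs and was at -0.20 in the Mavs double KO (adjusted p = 0.113). With WT sets 1 and 2 together as reference, Erap1 in the Sting double KO was at 0.05 and not called by edgeR's test (adjusted p = 0.682). With WT set 1 alone, calls were lost on Psmb9 (adjusted p = 0.587), Psmb8 (0.297) and Tapbp (0.151) in the Mavs, on Psmb9 (0.192) and Psmb10 (0.12) in the Irf7 and on Psme2 (0.246) in the Sting double KO. With set 2 alone Psme1 in the Sting (0.0817), Psme2 in the Mavs (0.305) and Psmb10 in the Irf7 double KO (0.179) were not called, nor with set 3 alone Tapbp, Psmb8 and Psme2 in the Mavs double KO (0.0904 to 0.512).

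**Figure D5:**
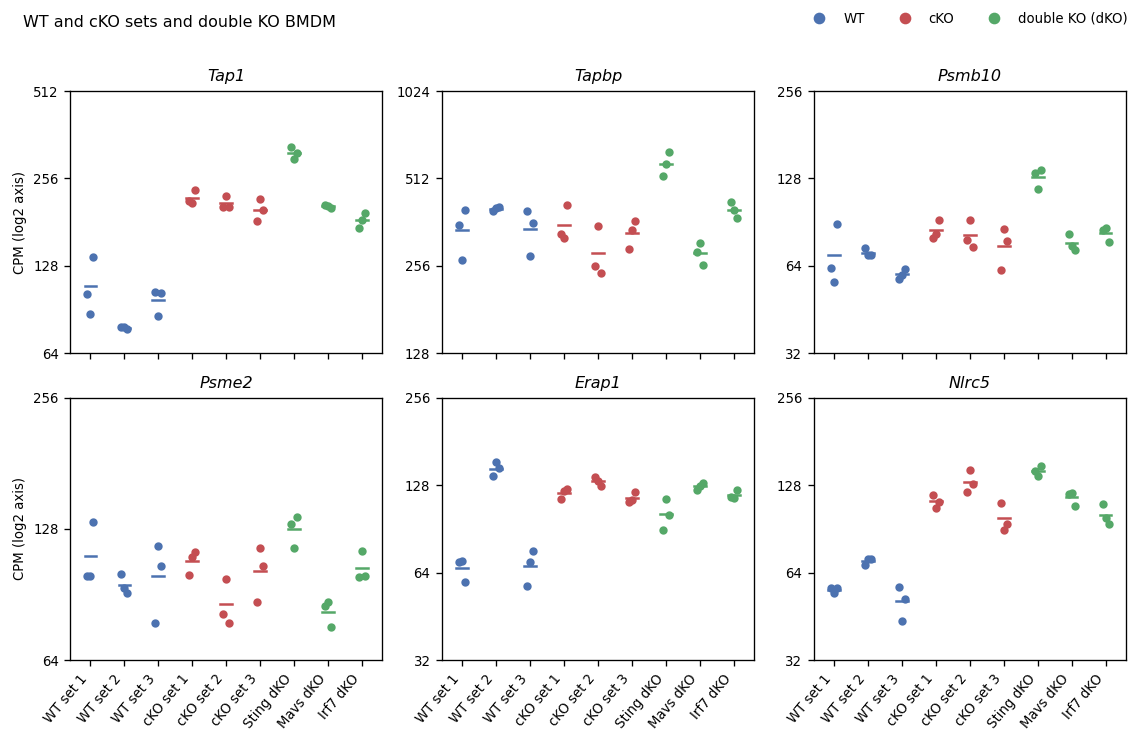
Tap1, Tapbp, Psmb10, Psme2, Erap1 and Nlrc5 in the 3 WT and 3 cKO sets and the 3 double KOs, in CPM on a log2 axis, 1 point a library and a bar at the group mean. The Sting double KO lies highest in Tap1, Tapbp and Psmb10, and WT set 2 stands apart from the other WT sets in Erap1, at 138 to 154 CPM.

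Over the 12 comparisons of cKO with WT, which include 3 arms of the antibody experiment and sets 1 and 3 that resemble each other, Nlrc5 was called higher in 8 and Tap1 in 7. Tap2 was called in 6, Psmb8 and Psmb9 in 5 each, Psmb10 and Erap1 in 4 each and Tapbp in 2, and Psme1 and Psme2 in none. Nlrc5 and Psmb9 had positive estimates in all 12. Tapbp was the only one of the 10 called lower in any of the 12, in set 2. The share of all genes that reach such counts over the 12 comparisons is not given here.

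Across the 27 groups, with log2 levels centred within each experiment, 9 of the 10 genes followed the mean of the other 9 with a Pearson r of 0.92 or more, highest in Psme1 and Psmb8 (0.97 each), and Erap1 followed it least (0.69). Log2 CPM averaged 3 or more in each experiment in 7304 genes, not counted apart from the 10. Outside the 10, the 5 of these most like the mean of the 10 were Rnf31 (r = 0.98), Slfn2, Tor3a, Daxx and Trafd1 (0.97 each). These 5 had an r as high as that of any member, and the share of the 7304 genes with an r of 0.92 or more is not given here. All these r values are descriptions over groups that share experiments and, in day 8, the IFNγ response.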

How the data were processed

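The authors trimmed reads with Cutadapt, aligned them to mm10 with STAR and deposited 1 count table per library, from which the unstranded counts per gene were used. The 79 of 81 libraries that the labels place in 27 groups were analysed, and 2 cKO day 8 libraries with conflicting IFNγ labels entered no comparison. Members and gene lists were chosen with earlier results of these data known, and the genes named are the 10 members, up to 4 called genes of each list (the 5 of the folding list in set 2 were named after their values were seen) and the 5 genes most like their mean. Genes were filtered with filterByExpr (minimum count 10, total 15) and each experiment was fitted with all its groups by edgeR 4.0.16's quasi-likelihood test in R 4.3.3, with TMM normalization and Benjamini-Hochberg adjustment over all genes. Each double KO was compared with the mean of the 3 sets. Count tables of sets 1 and 2 and of the Sting and Mavs double KOs listed 55536 genes. Those of set 3 and the Irf7 double KO listed 54146. Joined over these libraries were 54079 genes, of which 52480 had the same identifier version throughout. The mean of the 3 sets thus combines counts made on both gene lists. Scripts were checked on simulated counts. The transcription factor list is given in part, and the rest of it is not reported here. Alternatives were DESeq2 1.42.0, RLE normalization, other filters (none, or a mean of at least 1 CPM), the legacy edgeR fit and only the groups compared. Others were single sets or sets 1 and 2 as reference, a replicate block and leaving out each library.

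Replicate numbers were taken to pair libraries where each number's deviations from its group means correlated above 0.1: days 3 and 7 between genotypes (0.13 to 0.47), day 7 and day 3 in cKO, IFNγ in WT, peritoneal cells, and control against no antibody in WT (0.15 to 0.28).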

Additional observations from a re-analysis of the deposited data

Results flagged for a closer look

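Erap1 had a genotype effect in set 2 that differed from those in sets 1 and 3, by -1.0 and -0.92 on the log2 scale in edgeR's test of the difference. Psmb9 differed by 0.57 against set 1 and by 0.53 against set 3, and Tap2 by 0.46 against set 3. In Tapbp, all 3 cKO libraries of set 2 lay below all 3 WT libraries (log2 fold change -0.51), while in 4 other comparisons all cKO libraries lay above all WT libraries. Erap1 did so as well (-0.15), against 9 comparisons with all cKO libraries above. These opposite orders across experiments were not themselves tested beyond the set comparisons given here, and the share of all genes with such orders is not given.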

How the results depend on the processing

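Of the counts of called genes under settings other than leaving out a library, 209 of 245 stayed within 1.5 times the main count, and of the single-gene values 904 of 985 kept direction and side of the threshold, 59 lost the call, 19 gained it and 3 reversed. The 3 were Erap1 against WT set 2 alone, at -0.52 in the Sting, -0.20 in the Mavs and -0.30 in the Irf7 double KO. The cause of the changes below was not tested, beyond the smaller number of samples when only the groups compared are fitted or a library is left out. Counts by DESeq2, under other settings or without a library are given here and above without the share of all genes called in the same fit.

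With DESeq2 the count was 3 for the change in genotype effect between days 7 and 3, 3 for genotype on day 8 untreated, 2 for IFNAR1 against control antibody in WT, 1 and 3 for control against no antibody in cKO and WT, and 4 for set 2 against set 1. Without the filter it was 2 for day 8 untreated, 0 for genotype in each of the control and IFNAR1 arms, 2 for control against no antibody in WT and 1 for set 2 against set 3. With a mean of at least 1 CPM it was 2 for control against no antibody in WT and 4 for set 2 against set 1. The legacy fit, added after the data were seen, gave 1 for genotype with the control antibody. With only the groups compared it was 0 on day 5, 2 for cKO day 7 against day 3, 3 for the change in genotype effect, 5 on day 8 untreated, 0 on day 8 with IFNγ, 7 and 0 for genotype in the control and IFNAR1 arms, 2 and 5 for control against no antibody in cKO and WT, and 2 and 1 for the Mavs and Irf7 double KOs against cKO. With set 1 alone as reference it was 5 for Mavs against WT and 5 for Sting against cKO, with set 3 alone 6 for Sting and 1 for Mavs against cKO, and with set 2 alone 3 for Irf7 against cKO.

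With the replicate block the count was 2 for the change in genotype effect between days 7 and 3, 0 on day 8 untreated, 0 on day 8 with IFNγ, 3 for IFNAR1 against control antibody in WT and 2 and 5 for control against no antibody in cKO and WT. No other count moved by over 1.5 times under the block. Outside the pairs that the numbers linked, libraries share only a number: correlations were -0.08 to 0.08 on day 8 between genotypes and -0.09 to 0.27 in the sets.

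Leaving out each library in turn gave counts of 5 to 6 on day 3, 0 to 7 on day 5, 0 to 3 on day 7, 4 to 8 for WT and 0 to 0 for cKO day 7 against day 3 and 0 to 2 for the change in genotype effect. Day 8 gave 0 to 0 untreated, 0 to 5 with IFNγ, 10 to 10 for IFNγ in either genotype and 0 to 5 for its interaction, and peritoneal cells 0 to 0. The antibody arms gave 2 to 4 with none, 0 to 0 with control and 0 to 1 with IFNAR1 antibody, 0 to 0 and 0 to 5 for IFNAR1 against control in cKO and WT, 0 to 0 and 0 to 2 for control against none in cKO and WT, and 0 to 0 for the interaction. Sets gave 5 to 8, 5 to 6 and 5 to 7 for sets 1, 2 and 3, 1 to 4 for set 2 against set 1 or set 3, and 0 to 0 for set 3 against set 1. Double KOs gave 9 to 10, 5 to 8 and 6 to 8 (Sting, Mavs, Irf7) against WT and 8 to 10, 0 to 0 and 0 to 1 against cKO. With 2 cKO libraries a group on day 8, 1 of 3614967 counts, the genotype comparisons of that day rest on the fewest samples.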

Other observations

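The 2 day 8 cKO libraries, both numbered replicate 3 and with labels that conflict on IFNγ, stayed out of every comparison. One had Tap1 at 136 CPM, Nlrc5 at 86.8, Tapbp at 250, Psmb10 at 56.2 and Erap1 at 106 CPM. The other had Tap1 at 936 CPM, Nlrc5 at 666, Tapbp at 1811, Psmb10 at 462 and Erap1 at 251 CPM.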
